A study of Mus musculus with 14 samples.

Results

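The 10 genes described here encode enzymes of thioredoxin, glutathione and quinone defence that are known targets of the transcription factor NRF2: Hmox1, Nqo1, Gclc, Gclm, Txnrd1, Srxn1, Gsr, Gsta3, Gsta4 and Prdx1. They were taken by gene symbol from a table of 20193 genes, and each had 1 row. RNA came from HL-1 cells, a mouse line of atrial heart muscle, grown in Claycomb medium with serum, L-glutamine and norepinephrine and transfected with siRNA at 10 nM by a lipid reagent. The groups were siAirn-001.1 (4 arrays) and siAirn-001.2 (4 arrays), both named for the long non-coding RNA Airn, and siScramble (6 arrays), a scrambled siRNA. All 3 groups share the line, the medium and the transfection, and no array of untransfected cells was analysed here. The labels do not say what distinguishes the siAirn reagents or how long after transfection RNA was taken. Each array is labelled a biological replicate, which does not say whether each was a separate culture, so the p-values reflect the spread among these arrays.

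NRF2, the product of Nfe2l2, is held in the cytoplasm and handed to the proteasome by KEAP1. Oxidants and electrophiles modify KEAP1, NRF2 then accumulates, pairs with small MAF proteins and binds antioxidant response elements, which the repressor BACH1 otherwise occupies. In heart muscle, where mitochondria are a large source of peroxide, its targets supply glutathione, reduced thioredoxin and NADPH-dependent reductases. The arrays measured mRNA and not NRF2 protein.

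Promoter windows of RefSeq (assembly GRCm38.p6), running from 250 bases before to 50 bases after a transcript's start, were available for 6 of the 10 genes. The core of the antioxidant response element was searched on both strands as TGACNNNGC and as the related TGAGNNNGC, and the AP-1 motif, with which the element can overlap, as TGACTCA. TGACNNNGC occurred in the windows of Gclm, Txnrd1, Srxn1, Gsta3 and Prdx1, 5 of 6 genes, against 3781 of all 27025 genes with a window, or 14%. TGAGNNNGC occurred in 2 of 6, Srxn1 and Prdx1, against 19.8% of genes, and TGACTCA in the same 2 genes, against 5.95%. Nqo1 held none of the 3 in its window. A match describes letters, not binding. The bases before the start are shown in full for Srxn1 and Gsta3, the 2 genes that passed the expression test, and as short stretches for Gclm, Prdx1 and Txnrd1, with capitals marking the matches on either strand and each sequence written 5′ to 3′ on the plus strand.
Srxn1 (chr2:152105274-152105523): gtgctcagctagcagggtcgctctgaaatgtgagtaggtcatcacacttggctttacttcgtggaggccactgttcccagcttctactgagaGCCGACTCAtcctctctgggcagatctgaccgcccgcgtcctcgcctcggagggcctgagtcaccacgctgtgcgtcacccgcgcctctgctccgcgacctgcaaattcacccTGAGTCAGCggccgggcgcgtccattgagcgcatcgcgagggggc
Gsta3 (chr1:21240335-21240584): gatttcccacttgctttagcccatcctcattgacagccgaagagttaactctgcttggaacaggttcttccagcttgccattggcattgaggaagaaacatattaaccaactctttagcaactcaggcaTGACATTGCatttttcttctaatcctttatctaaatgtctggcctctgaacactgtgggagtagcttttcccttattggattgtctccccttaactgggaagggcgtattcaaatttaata
Gclm (chr3:122245407-122245447): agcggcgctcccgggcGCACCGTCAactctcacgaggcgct
Prdx1 (chr4:116685450-116685490): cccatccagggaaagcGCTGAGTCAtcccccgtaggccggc
Txnrd1 (chr10:82859098-82859138): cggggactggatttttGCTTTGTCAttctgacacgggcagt
The capitals in the Srxn1 sequence are matches of TGAGNNNGC, and the one nearer the start also holds the AP-1 motif, which occurs once more in lower case. The TGACNNNGC match of Srxn1 lies after its start and is not shown. In Gsta3, Gclm, Prdx1 and Txnrd1 the capitals are matches of TGACNNNGC, and that of Prdx1 overlaps the AP-1 motif.

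The targeted RNA was read first. Relative to the siScramble mean, Airn (transcript cluster 10441787) stood at 93.5%, 89.2%, 48.4% and 48.3% in siAirn-001.1 arrays 1 to 4 and at 96.2%, 80.5%, 41.4% and 45.5% in siAirn-001.2 arrays 1 to 4, against 86.8% to 112.7% over the siScramble arrays. Arrays 3 and 4 of both reagents lay below every siScramble array, while 3 of the other 4 siAirn arrays lay inside the siScramble range. The log2 change of Airn was -0.59 with siAirn-001.1 (exact permutation p = 0.019) and -0.69 with siAirn-001.2 (exact permutation p = 0.0143), and neither passed after adjustment over all genes (limma adjusted p = 0.168 and 0.193). Array medians were 7.445 to 7.545 on the log2 scale, and the correlation across genes was 0.988 to 0.998 for any pair of arrays. Of 13 measured atrial markers, 11 (Nppa, Myl7 and Tnnt2 among them) exceeded the array median in every array. No macrophage marker of 8 did so, and Col1a1 and Col1a2 did so among 9 fibroblast markers. Of 8 endothelial markers Kdr alone did so in every siAirn array, though not in every siScramble array, and it rose with siAirn-001.1 (log2 change 0.71, adjusted p = 0.00205). The mean of the atrial markers was 11.51 to 11.64 in the siAirn-001.1 arrays and 11.14 to 11.40 in siAirn-001.2 arrays, against 11.22 to 11.39 in siScramble arrays. All 13 had positive log2 changes with siAirn-001.1, where 46.7% of all genes did. Of these 4 rose (Tnni3, Gja5, Nkx2-5 and Tbx5), where 3.43% of all genes did. With siAirn-001.2, 5 of the 13 had positive and 8 negative log2 changes, and 0 passed. Of the 9 fibroblast markers 8 had negative log2 changes with each reagent, and 0 passed. The part of these marker differences in the results was not tested. In these bulk samples, fewer cells of a type and less RNA per cell cannot be told apart.

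Across the 10 genes the changes were few and small, and they ran in both directions. With siAirn-001.1, Srxn1 rose and Gsta3 fell, so that 2 of 10 genes passed an adjusted p of 0.05 in limma, where 5.96% of all genes passed (3.43% higher and 2.53% lower). Gclc was the third with an unadjusted p under 0.05, where 17.9% of all genes were. With siAirn-001.2, 0 of 10 passed in limma, where 0.951% of all genes did, and 0 of 10 were under an unadjusted p of 0.05, where 11.3% of all genes were. When the average of the siAirn-001.1 and siAirn-001.2 means was set against siScramble (the mean contrast), Srxn1 (higher) and Gsta3 (lower) passed again, where 4.13% of all genes did (2.15% higher and 1.97% lower). The median log2 change of the 10 genes was 0.04 with siAirn-001.1, -0.01 with siAirn-001.2 and 0.02 in the mean contrast, against -0.01, -0.00 and -0.00 over all genes. The split of calls over all genes depended on scaling: with siAirn-001.1 it was 693 higher and 510 lower as deposited and 794 and 358 with each array centred on its median, and in the mean contrast 435 and 398 against 460 and 267. These contrasts share the 6 siScramble arrays. The mean contrast treats all siAirn arrays as independent, although equal replicate numbers of the siAirn groups deviated together. Its SE and p-values do not allow for that and can be too small. With the replicate number as a block, Srxn1 did not pass in the mean contrast (limma adjusted p = 0.0834) and Gsta3 did (limma adjusted p = 0.0438). That block also joined siScramble to siAirn arrays by number, and siScramble arrays above replicate 4 no longer counted. Its estimates, 0.17 for Srxn1 and -0.23 for Gsta3, equal those with siScramble limited to replicates 1 to 4 (limma adjusted p = 0.0946 and 0.0688). These results therefore do not show the effect of allowing for the siAirn pairing alone.

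**Figure D1:**
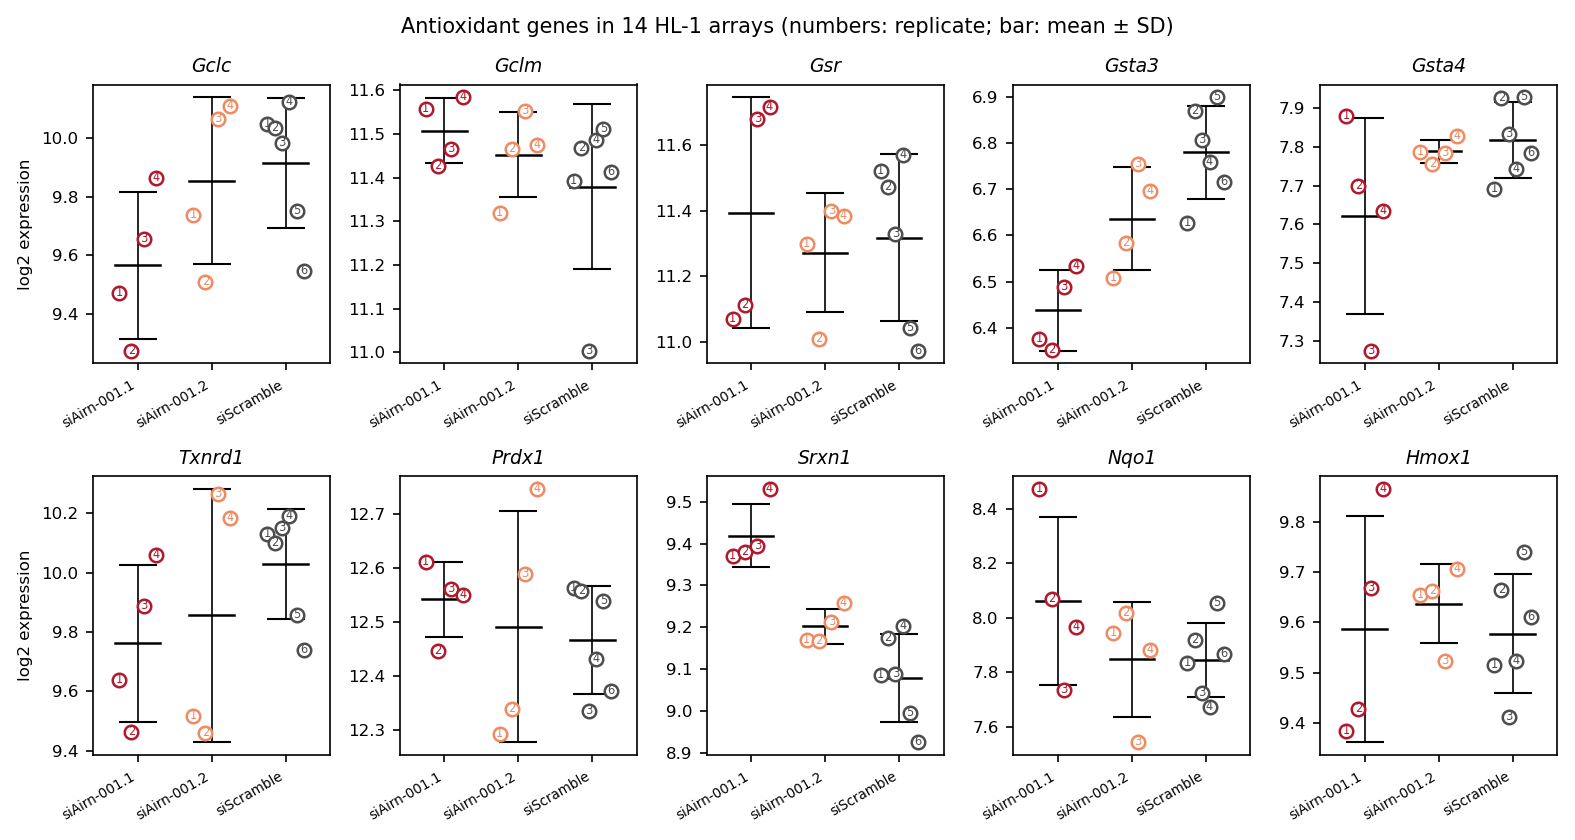
Log2 expression of the 10 genes (y axes differ between panels) in each array of siAirn-001.1, siAirn-001.2 and siScramble, with points numbered by replicate and bars giving the mean and SD. Srxn1 in the siAirn-001.1 arrays (9.37 to 9.53) lies above every siScramble array (8.92 to 9.20), and Gsta3 in the siAirn-001.1 arrays (6.35 to 6.53) lies below every siScramble array (6.63 to 6.90).

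Gclc and Gclm encode the catalytic and modifier subunits of glutamate-cysteine ligase, the rate-limiting enzyme of glutathione synthesis. Gclc (transcript cluster 10587266) had log2 values of 9.47, 9.27, 9.66 and 9.86 in the siAirn-001.1 arrays and 9.74, 9.51, 10.07 and 10.11 in siAirn-001.2 arrays, against 9.55 to 10.13 (median 10.01) in siScramble arrays. Only siAirn-001.1 arrays 1 and 2 and siAirn-001.2 array 2 fell below the lowest siScramble array, and both reagents overlapped the siScramble range. The log2 change of Gclc was -0.35 (95% confidence interval -0.65 to -0.05, adjusted p = 0.179) with siAirn-001.1 and -0.06 (-0.36 to 0.24, adjusted p = 0.98) with siAirn-001.2. The siAirn-001.1 difference passed when the siScramble arrays were limited to replicates 1 to 4 (adjusted p = 0.0487) and with array weights (log2 change -0.47, adjusted p = 0.0272).

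Gclm (transcript cluster 10495763) had 11.56, 11.43, 11.46 and 11.58 in the siAirn-001.1 arrays and 11.32, 11.47, 11.55 and 11.47 in siAirn-001.2 arrays, against 11.00 to 11.51 (median 11.44) in siScramble arrays. Here 1 siScramble array, replicate 3, lay well below the other 13 arrays. For Gclm the log2 change was 0.13 (-0.06 to 0.32, adjusted p = 0.539) with siAirn-001.1 and 0.07 (-0.12 to 0.26, adjusted p = 0.927) with siAirn-001.2. The pair of subunits thus had estimates of opposite sign with siAirn-001.1, neither past the threshold.

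Gsr encodes glutathione reductase, which returns oxidised glutathione to its reduced form with NADPH. Gsr (transcript cluster 10571274) had 11.07, 11.11, 11.68 and 11.72 in the siAirn-001.1 arrays and 11.30, 11.01, 11.40 and 11.38 in siAirn-001.2 arrays, against 10.97 to 11.57 (median 11.40) in siScramble arrays. The spread within siAirn-001.1 was wider than the whole siScramble range, with arrays 3 and 4 above it and arrays 1 and 2 near its lower end. The log2 change was 0.08 (-0.24 to 0.39, adjusted p = 0.884) with siAirn-001.1 and -0.05 (-0.36 to 0.27, adjusted p = 0.99) with siAirn-001.2, and the sign of the siAirn-001.1 value turned with array weights (-0.0854) and with siScramble limited to replicates 1 to 4 (-0.0794).

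Gsta3 and Gsta4 encode alpha-class glutathione S-transferases, which join glutathione to electrophiles. GSTA4 acts on 4-hydroxynonenal, a product of lipid peroxidation. Gsta3 (transcript cluster 10345065) had 6.38, 6.35, 6.49 and 6.53 in the siAirn-001.1 arrays and 6.51, 6.58, 6.76 and 6.70 in siAirn-001.2 arrays, against 6.63 to 6.90 (median 6.78) in siScramble arrays. All 4 siAirn-001.1 arrays lay below the siScramble range, and 2 of the 4 siAirn-001.2 arrays did. Gsta3 fell with siAirn-001.1, to 78.9% of its siScramble level (log2 change -0.34 ± 0.07, SE, adjusted p = 0.00964), and its group means were 6.44 ± 0.09 with siAirn-001.1 (SD, n = 4) and 6.78 ± 0.10 with siScramble (SD, n = 6). With siAirn-001.2 the log2 change was -0.14 (-0.30 to 0.01, adjusted p = 0.489). The mean contrast was -0.24 ± 0.06 (adjusted p = 0.0312), a call lost without siScramble array 2, 3, 4 or 5, siAirn-001.1 array 1 or 2, or siAirn-001.2 array 1 or 2 (adjusted p up to 0.0905), with each array centred on its median (adjusted p = 0.0545), after quantile normalisation (adjusted p = 0.0656) and with siScramble limited to replicates 1 to 4 (adjusted p = 0.0688). Gsta3 was the only 1 of the 10 genes whose siScramble mean lay below the median of all genes (7.492), and probes of closely related Gsta genes were not checked for shared sequence.

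Gsta4 (transcript cluster 10587315) had 7.88, 7.70, 7.27 and 7.64 in the siAirn-001.1 arrays and 7.79, 7.75, 7.78 and 7.83 in siAirn-001.2 arrays, against 7.69 to 7.93 (median 7.81) in siScramble arrays. The lowest value, in siAirn-001.1 array 3, stood apart, and all siAirn-001.2 arrays lay inside the siScramble range. The log2 change of Gsta4 was -0.20 (-0.39 to 0.00, adjusted p = 0.279) with siAirn-001.1 and -0.03 (-0.23 to 0.17, adjusted p = 0.989) with siAirn-001.2.

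Srxn1 encodes sulfiredoxin, which restores peroxiredoxins whose active cysteine has been over-oxidised. Srxn1 (transcript cluster 10477061) had 9.37, 9.38, 9.39 and 9.53 in the siAirn-001.1 arrays and 9.17, 9.17, 9.21 and 9.26 in siAirn-001.2 arrays, against 8.92 to 9.20 (median 9.09) in siScramble arrays. Every siAirn-001.1 array exceeded every siAirn-001.2 and every siScramble array, and the siAirn-001.2 arrays overlapped the upper end of the siScramble range. Srxn1 rose 1.27-fold with siAirn-001.1 (log2 change 0.34 ± 0.07, SE, adjusted p = 0.00588), and its group means were 9.42 ± 0.08 with siAirn-001.1 (SD, n = 4) and 9.08 ± 0.11 with siScramble (SD, n = 6). With siAirn-001.2 its log2 change was 0.12 (-0.02 to 0.26, adjusted p = 0.542). In the mean contrast Srxn1 was 0.23 ± 0.06 higher (adjusted p = 0.0252), which no longer passed with the siScramble arrays limited to replicates 1 to 4 (adjusted p = 0.0946) or with siScramble array 1 or 5 left out (adjusted p up to 0.0572).

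Prdx1 encodes a cytosolic peroxiredoxin that sulfiredoxin repairs, and Txnrd1 the cytosolic thioredoxin reductase that keeps thioredoxin reduced. Txnrd1 (transcript cluster 10365260) had 9.64, 9.46, 9.89 and 10.06 in the siAirn-001.1 arrays and 9.52, 9.46, 10.27 and 10.18 in siAirn-001.2 arrays, against 9.74 to 10.19 (median 10.12) in siScramble arrays. Arrays 1 and 2 of both reagents lay below the siScramble range, and arrays 3 and 4 lay inside it for siAirn-001.1, while for siAirn-001.2 array 3 lay above it. The log2 change of Txnrd1 was -0.27 (-0.61 to 0.07, adjusted p = 0.447) with siAirn-001.1 and -0.17 (-0.51 to 0.17, adjusted p = 0.855) with siAirn-001.2.

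Prdx1 (transcript cluster 10436048) had 12.61, 12.45, 12.56 and 12.55 in the siAirn-001.1 arrays and 12.29, 12.34, 12.59 and 12.75 in siAirn-001.2 arrays, against 12.34 to 12.56 (median 12.49) in siScramble arrays. Its groups overlapped throughout, with the widest spread in siAirn-001.2. The log2 change was 0.08 (-0.11 to 0.26, adjusted p = 0.769) with siAirn-001.1 and 0.02 (-0.16 to 0.21, adjusted p = 0.99) with siAirn-001.2. The interval for siAirn-001.2 thus leaves room for a change of about 0.2 on the log2 scale either way.

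Nqo1 encodes a quinone reductase that uses NADPH or NADH, and Hmox1 the inducible haem oxygenase, which is repressed by BACH1. Nqo1 (transcript cluster 10581538) had 8.47, 8.07, 7.73 and 7.97 in the siAirn-001.1 arrays and 7.95, 8.02, 7.54 and 7.88 in siAirn-001.2 arrays, against 7.67 to 8.05 (median 7.85) in siScramble arrays. Array 1 of siAirn-001.1 was the highest and array 3 of siAirn-001.2 the lowest, so that neither reagent stood apart from siScramble. For Nqo1 the log2 change was 0.22 (-0.05 to 0.48, adjusted p = 0.414) with siAirn-001.1 and 0.00 (-0.26 to 0.27, adjusted p = 1) with siAirn-001.2.

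Hmox1 (transcript cluster 10572897) had 9.38, 9.43, 9.67 and 9.87 in the siAirn-001.1 arrays and 9.65, 9.66, 9.52 and 9.71 in siAirn-001.2 arrays, against 9.41 to 9.74 (median 9.57) in siScramble arrays. The siAirn-001.1 arrays spanned more than the siScramble range in both directions. The log2 change of Hmox1 was 0.01 (-0.19 to 0.20, adjusted p = 0.982) with siAirn-001.1 and 0.06 (-0.14 to 0.25, adjusted p = 0.956) with siAirn-001.2.

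**Figure D2:**
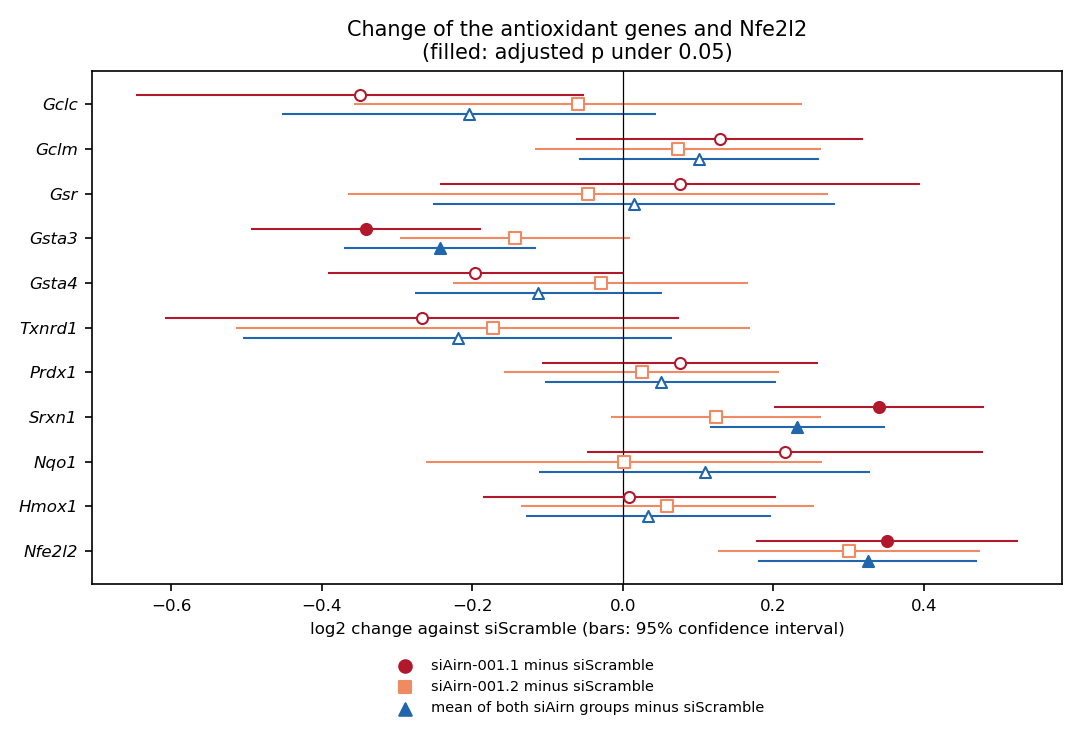
Log2 change against siScramble (x axis) of the 10 genes and of Nfe2l2 with siAirn-001.1, with siAirn-001.2 and in the mean contrast. Bars are 95% confidence intervals from limma, and filled points have an adjusted p under 0.05. Filled points are Srxn1 (0.34), Gsta3 (-0.34) and Nfe2l2 (0.35) with siAirn-001.1. In the mean contrast they are Srxn1 (0.23), Gsta3 (-0.24) and Nfe2l2 (0.33).

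Counted by array, 2 of the 10 genes had all 4 siAirn-001.1 arrays outside the siScramble range on the same side (Srxn1 above, Gsta3 below), against 7.98% of all genes. For siAirn-001.2 the count was 0 of 10, against 3.74% of all genes. With all 8 siAirn arrays it was 0 of 10, against 1.63%.

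Between the reagents, 0 of 10 genes differed past the threshold in limma, where 1.01% of all genes did (0.332% higher and 0.674% lower with siAirn-001.2), and 2 of 10 were under an unadjusted p of 0.05, where 13.4% of all genes were. These 2 were Srxn1 and Gsta3. Srxn1 was 0.22 lower with siAirn-001.2 than with siAirn-001.1 (log2 difference -0.22, 95% confidence interval -0.37 to -0.06, adjusted p = 0.175), and all 4 siAirn-001.2 arrays lay below all 4 siAirn-001.1 arrays. For Gsta3 the log2 difference was 0.20 (0.03 to 0.37, adjusted p = 0.273), and 3 of 4 siAirn-001.2 arrays lay above the siAirn-001.1 arrays. The call of both genes with siAirn-001.1 alone is therefore not shown to be a difference between the reagents, nor are the reagents shown to act alike.

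Within the siAirn groups, several of these genes differed more between replicate numbers than between groups, and these values are a description with no test. The mean of siAirn-001.1 arrays 3 and 4 minus that of arrays 1 and 2 was 0.61 for Gsr, 0.42 for Txnrd1, 0.39 for Gclc, 0.36 for Hmox1 and -0.42 for Nqo1 on the log2 scale. In siAirn-001.2 the same difference was 0.74 for Txnrd1, 0.47 for Gclc, 0.35 for Prdx1, 0.24 for Gsr and -0.27 for Nqo1. Over all genes the median size of this difference was 0.121 in siAirn-001.1 and 0.127 in siAirn-001.2, and its 95th percentile 0.51 and 0.496. Gsr in siAirn-001.1 and Txnrd1 in siAirn-001.2 thus lay beyond the 95th percentile of all genes. The siScramble arrays were uneven too. Arrays 5 and 6 minus arrays 1 to 4 gave -0.47 for Gsr, -0.40 for Gclc and -0.34 for Txnrd1, where the 95th percentile over all genes was 0.367.

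Srxn1 and Gsta3, the genes that passed the test, were read by replicate number too. For Srxn1 the difference between arrays 3 and 4 and arrays 1 and 2 was 0.09 in siAirn-001.1 and 0.07 in siAirn-001.2, both below the median size over all genes. Its siScramble arrays 5 and 6 minus arrays 1 to 4 gave -0.18, where the median size over all genes was 0.11. For Gsta3 the difference between arrays 3 and 4 and arrays 1 and 2 was 0.15 in siAirn-001.1 and 0.18 in siAirn-001.2, both above the median size over all genes. In siAirn-001.2 the Gsta3 values of arrays 1 and 2 lay below the siScramble range and those of arrays 3 and 4 inside it. In both siAirn groups the arrays numbered 3 and 4, where Gclc, Txnrd1 and Gsr were higher, were also those with the lower Airn signal. The labels do not say what the replicate number stands for, so Airn level and replicate number cannot be told apart.

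**Figure D3:**
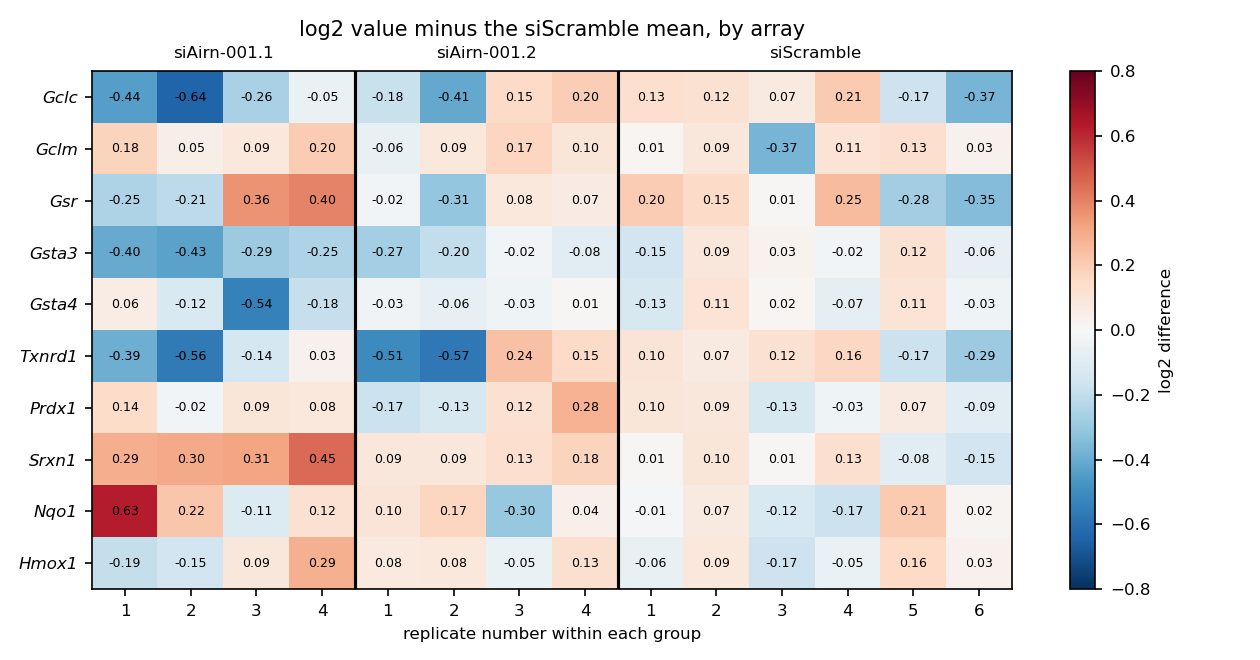
Log2 value minus the siScramble mean for each of the 10 genes (rows) in each array (columns, by group and replicate number), as colour. Gclc and Txnrd1 are low in arrays 1 and 2 of both siAirn groups and in siScramble arrays 5 and 6, while Srxn1 is high across the 4 siAirn-001.1 arrays.

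Among the regulators, Nfe2l2 rose, while the 10 genes changed little and in both directions. Nfe2l2 (transcript cluster 10483809) had 11.09, 11.13, 10.94 and 11.06 in the siAirn-001.1 arrays and 10.97, 11.05, 10.93 and 11.07 in siAirn-001.2 arrays, against 10.44 to 10.91 (median 10.72) in siScramble arrays. All 8 siAirn arrays exceeded all 6 siScramble arrays, a separation in this or the opposite direction seen for 1.63% of all genes. In the mean contrast Nfe2l2 rose 1.25-fold (log2 change 0.33 ± 0.07, SE, adjusted p = 0.0137). It was 0.35 higher with siAirn-001.1 (adjusted p = 0.0175), and with siAirn-001.2 the log2 change was 0.30 (0.13 to 0.47, adjusted p = 0.102). The siAirn-001.1 call was lost without siAirn-001.1 array 2 (adjusted p = 0.0579), and the siAirn-001.2 difference passed with the siScramble arrays limited to replicates 1 to 4 (adjusted p = 0.023) and with array weights (adjusted p = 0.0319).

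Keap1, whose product holds NRF2 back, had 9.23, 9.21, 9.22 and 9.29 in the siAirn-001.1 arrays and 9.10, 9.25, 9.17 and 9.25 in siAirn-001.2 arrays, against 8.79 to 9.18 (median 9.06) in siScramble arrays. The siAirn-001.1 arrays lay above the siScramble range and the siAirn-001.2 arrays overlapped it. The mean contrast of Keap1 was 0.18 (adjusted p = 0.114), and it passed with siScramble limited to replicates 1 to 4 (0.24, adjusted p = 0.0464). Bach1, which encodes the repressor that competes with NRF2, had 9.35, 9.32, 9.13 and 9.24 in the siAirn-001.1 arrays and 9.51, 9.35, 9.40 and 9.48 in siAirn-001.2 arrays, against 9.08 to 9.30 (median 9.19) in siScramble arrays. Its mean contrast was 0.15 (adjusted p = 0.156), or 0.20 with array weights (adjusted p = 0.0244), with the siAirn-001.2 arrays all above the siScramble range. Of the 17 genes of a list of NRF2 regulators, 1 (Nfe2l2) passed in the mean contrast.

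Redox genes beyond the 10 were read from 8 lists (regulators, other glutathione genes, other glutathione transferases, other thioredoxin genes, quinone and drug reductases, NADPH supply, haem and iron, and superoxide and peroxide), with 148 of 162 genes measured. Of these, 8 rose and 3 fell in the mean contrast, 11 of 148 genes in all, where 4.13% of all genes passed. The median log2 change of the 148 genes was 0.01, against -0.00 over all genes. With siAirn-001.1 alone 6 rose and 4 fell, where 5.96% of all genes passed, and with siAirn-001.2 alone 2 rose and 1 fell, where 0.951% passed.

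In the glutathione list, 1 of 26 genes rose and 1 fell in the mean contrast. Glrx, a glutaredoxin that removes glutathione from protein cysteines, had 10.95, 10.88, 10.61 and 10.59 in the siAirn-001.1 arrays and 10.36, 10.56, 10.13 and 10.26 in siAirn-001.2 arrays, against 9.85 to 10.30 (median 10.13) in siScramble arrays. The siAirn-001.1 arrays stood above all siScramble arrays, and the siAirn-001.2 arrays overlapped them. Its mean contrast was 0.46 ± 0.09 (SE, adjusted p = 0.0111). Glrx3, an iron-sulfur glutaredoxin, had 8.76, 8.51, 8.55 and 8.81 in the siAirn-001.1 arrays and 8.89, 8.76, 8.57 and 9.03 in siAirn-001.2 arrays, against 8.86 to 9.55 (median 9.22) in siScramble arrays, and it fell by 0.47 ± 0.10 in the mean contrast (adjusted p = 0.015), a call lost with siScramble limited to replicates 1 to 4 (log2 change -0.35, adjusted p = 0.0519). Arrays of siAirn-001.2 overlapped the siScramble range for Glrx3, and those of siAirn-001.1 lay below it.

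Among 24 other thioredoxin genes 1 rose, Txn2, the mitochondrial thioredoxin. It had 10.87, 10.84, 11.10 and 11.17 in the siAirn-001.1 arrays and 11.05, 10.78, 10.71 and 10.81 in siAirn-001.2 arrays, against 10.33 to 10.79 (median 10.42) in siScramble arrays. Only siScramble array 3 reached the siAirn values. The mean contrast of Txn2 was 0.45 ± 0.08 (SE, adjusted p = 0.005). Tmx1, a thioredoxin-like protein of the endoplasmic reticulum, fell with siAirn-001.1 alone (log2 change -0.41, adjusted p = 0.0487), a call lost in 11 of the 14 fits that left out 1 array (adjusted p up to 0.141), the exceptions being siScramble array 6 and siAirn-001.1 arrays 1 and 2.

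Of 16 other glutathione transferases 1 rose. Gstp1, the pi-class enzyme, had 12.16, 12.36, 12.24 and 12.29 in the siAirn-001.1 arrays and 12.16, 12.29, 12.19 and 12.35 in siAirn-001.2 arrays, against 11.87 to 12.14 (median 12.05) in siScramble arrays. All 8 siAirn arrays lay above all 6 siScramble arrays. Its mean contrast was 0.24 ± 0.06 (SE, adjusted p = 0.0284), and the call was lost in fits without siScramble array 1, 3, 4 or 5, siAirn-001.1 array 2 or siAirn-001.2 array 4 (adjusted p up to 0.0681), and with siScramble limited to replicates 1 to 4 (adjusted p = 0.0795). Blocks of equal or of consecutive replicate numbers ended the mean contrast call of Gstp1 as well. Gstp1 has a near-identical copy, Gstp2, and the array may not separate them.

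In the quinone and drug reductase list, 2 of 24 genes rose and 1 fell in the mean contrast. Ptgr1, a prostaglandin reductase that also reduces alkenals, had 9.89, 9.76, 9.69 and 9.81 in the siAirn-001.1 arrays and 9.52, 9.88, 10.11 and 10.02 in siAirn-001.2 arrays, against 9.17 to 9.75 (median 9.29) in siScramble arrays. Array 3 of siAirn-001.1 and array 1 of siAirn-001.2 reached into the siScramble range and the other 6 siAirn arrays lay above it. The mean contrast of Ptgr1 was 0.46 ± 0.10 (SE, adjusted p = 0.0188) and did not hold when siScramble array 1, 2 or 4 was left out (adjusted p up to 0.0587). Akr1b8, an aldo-keto reductase, had 11.08, 11.10, 11.14 and 11.20 in the siAirn-001.1 arrays and 10.71, 10.95, 10.63 and 10.74 in siAirn-001.2 arrays, against 10.39 to 10.90 (median 10.64) in siScramble arrays. Akr1b8 was above the siScramble range in every siAirn-001.1 array and inside it in 3 of 4 siAirn-001.2 arrays. Its mean contrast was 0.30 ± 0.08 (SE, adjusted p = 0.0353), lost without siScramble array 1, 2, 3 or 4, siAirn-001.1 array 2, 3 or 4, or siAirn-001.2 array 2 (adjusted p up to 0.106).

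Ugdh, which oxidises UDP-glucose to UDP-glucuronate for conjugation, had 10.42, 10.40, 10.02 and 10.13 in the siAirn-001.1 arrays and 10.95, 10.87, 11.50 and 11.43 in siAirn-001.2 arrays, against 11.19 to 11.46 (median 11.38) in siScramble arrays. Every siAirn-001.1 array lay far below every siScramble array. Of the siAirn-001.2 arrays, 1 and 2 lay below the siScramble range, array 3 above it and array 4 inside it near its upper end. Ugdh fell with siAirn-001.1, to 46.7% of its siScramble level (log2 change -1.098 ± 0.12, SE, adjusted p = 8.28e-05). With siAirn-001.2 its log2 change was -0.15 (-0.41 to 0.11, adjusted p = 0.793). The difference between the reagents, 0.94 ± 0.13 higher with siAirn-001.2, passed the test (adjusted p = 0.00495). It was not called when only the siAirn arrays were fitted, without the siScramble arrays (adjusted p = 0.0714).

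Mthfd2, a mitochondrial folate enzyme, rose in the mean contrast as the only 1 of 12 NADPH genes to pass (log2 change 0.36 ± 0.07, adjusted p = 0.0102). It had 10.74, 10.62, 10.76 and 10.77 in the siAirn-001.1 arrays and 10.97, 11.15, 11.02 and 10.98 in siAirn-001.2 arrays, against 10.34 to 10.81 (median 10.45) in siScramble arrays. All 4 siAirn-001.2 arrays lay above the siScramble range and all 4 siAirn-001.1 arrays inside it. The log2 change was 0.20 with siAirn-001.1 (adjusted p = 0.203) and 0.51 with siAirn-001.2 (adjusted p = 0.0116), and the difference between the reagents did not pass (0.31, adjusted p = 0.133). Ucp2, a mitochondrial carrier, was the only 1 of 15 superoxide and peroxide genes to pass. It had 11.32, 11.21, 11.16 and 11.09 in the siAirn-001.1 arrays and 11.27, 11.28, 11.26 and 11.20 in siAirn-001.2 arrays, against 10.67 to 10.98 (median 10.79) in siScramble arrays, and rose by 0.40 ± 0.06 in the mean contrast (adjusted p = 0.00137). All 8 siAirn arrays lay above the 6 siScramble arrays. Aco1, the cytosolic aconitase that doubles as an iron-regulated RNA-binding protein, had 10.58, 10.58, 10.37 and 10.44 in the siAirn-001.1 arrays and 10.44, 10.57, 10.29 and 10.33 in siAirn-001.2 arrays, against 10.72 to 10.85 (median 10.75) in siScramble arrays. All 8 siAirn arrays lay below the 6 siScramble arrays, and Aco1 was the 1 of 14 haem and iron genes to pass (mean contrast -0.32 ± 0.06, adjusted p = 0.00572). With each reagent alone Aco1 and Ucp2 passed too, Aco1 with adjusted p = 0.0281 for siAirn-001.1 and 0.0216 for siAirn-001.2, and Ucp2 with 0.00617 and 0.0124. For Aco1 the siAirn-001.1 call was lost without siScramble array 1, 2 or 4 or siAirn-001.1 array 3 or 4 (adjusted p up to 0.0893), and the siAirn-001.2 call without siScramble array 2 or 4 or siAirn-001.2 array 3 or 4 (up to 0.0946).

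**Figure D4:**
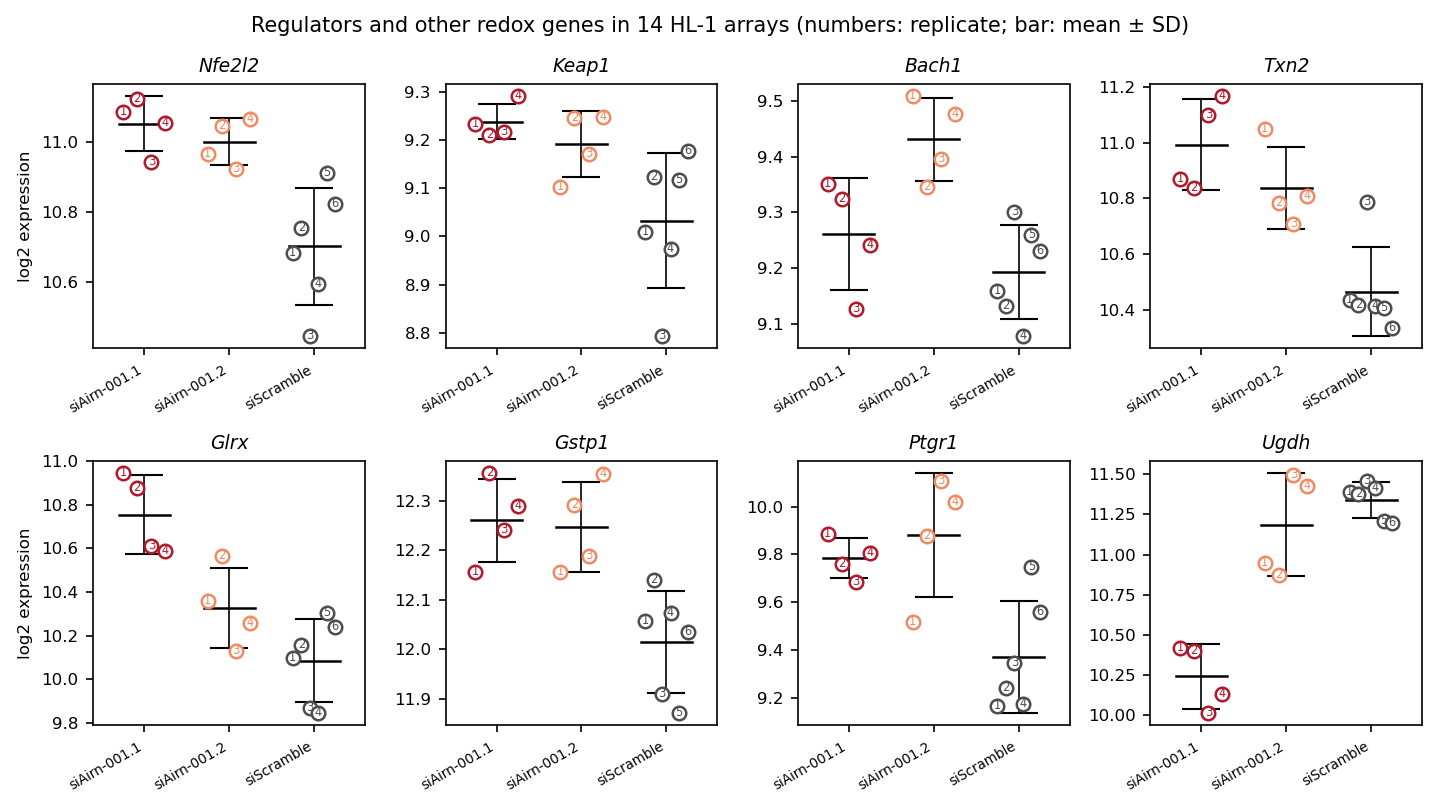
Log2 expression of Nfe2l2, Keap1, Bach1, Txn2, Glrx, Gstp1, Ptgr1 and Ugdh (y axes differ between panels) in each array of siAirn-001.1, siAirn-001.2 and siScramble. Points are numbered by replicate, and bars give the mean and SD. For Ugdh the siAirn-001.1 arrays (10.02 to 10.42) lie below all others, and for Nfe2l2 all 8 siAirn arrays lie above the siScramble arrays (10.44 to 10.91).

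**Figure D5:**
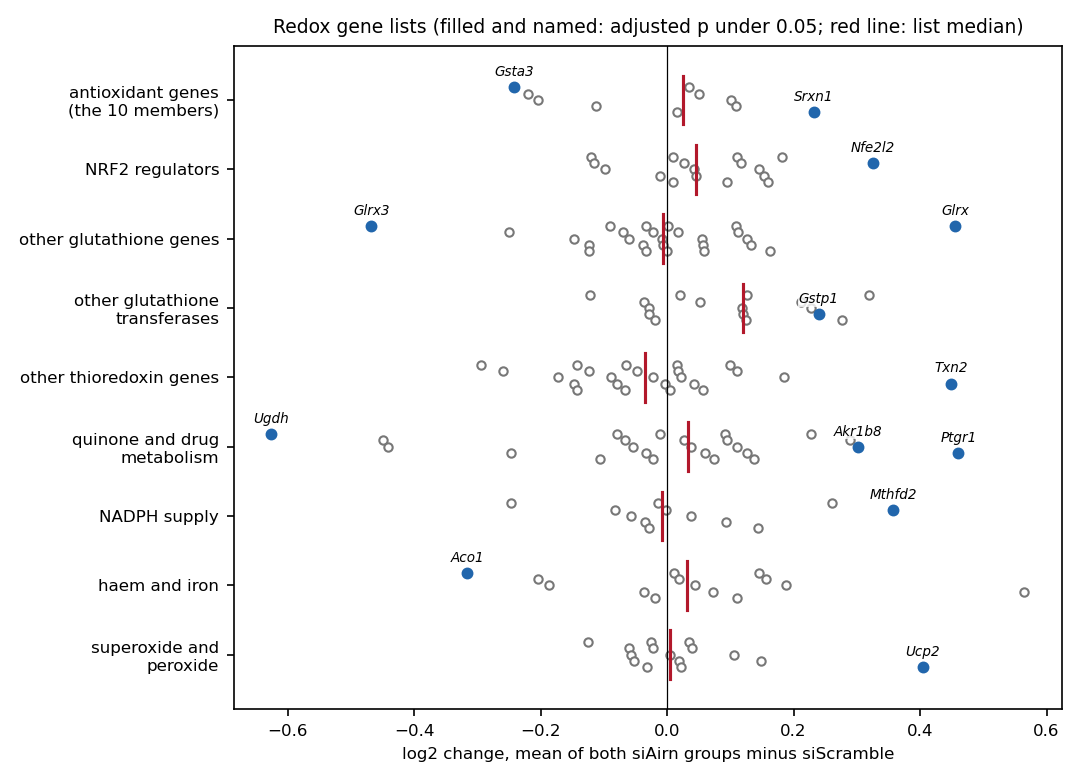
Log2 change in the mean contrast, siAirn-001.1 and siAirn-001.2 averaged against siScramble (x axis), for the 10 genes (first row) and the genes of the 8 redox lists (other rows). Filled, named points have an adjusted p under 0.05, and a red line marks the median of each row. Ugdh (-0.63) has the largest fall among the named genes, and the named points, Srxn1 and Gsta3 among them, lie on both sides of 0.

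Between the reagents, 1 of these 148 genes, Ugdh, differed in limma, where 1.01% of all genes did. Because equal replicate numbers of the 2 siAirn groups deviated together, the comparison was also fitted with the number as a block. That block also joined siScramble arrays to siAirn arrays of equal number. Of the 148 genes 3 then passed, where 1.45% of all genes did. These were Ugdh (adjusted p = 0.0104), Glrx (lower with siAirn-001.2, log2 difference -0.43, adjusted p = 0.0138 with the block and 0.101 without) and Akr1b8 (lower with siAirn-001.2, log2 difference -0.37, adjusted p = 0.0444 with the block and 0.0896 without). For Srxn1 and Gsta3 the block left the difference short of the threshold (adjusted p = 0.116 and 0.199).

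Over the 14 arrays the genes most like Srxn1 were Srl (Pearson r = 0.957), Zswim5 (0.937) and Clip4 (0.93). Those most like Gsta3 were Sh3glb2 (0.948), Atpbd4 (0.921) and Lzts1 (0.916). The arrays share their group structure, so these likenesses are a description and carry no test. Srl, which encodes sarcalumenin of the sarcoplasmic reticulum, had a mean contrast of 0.25 (adjusted p = 0.0549), and Lzts1 one of -0.35 (adjusted p = 0.00443).

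The authors' deposited table compares all siAirn arrays with siScramble and holds 292 genes with an adjusted p under 0.05, among them 0 of the 10 genes. In the authors' deposited table Srxn1 has a log2 difference of 0.232 (adjusted p = 0.124168) and Gsta3 one of -0.242 (adjusted p = 0.122108). Nfe2l2 is among its 292 genes, with a log2 difference of 0.326 (adjusted p = 0.032297 in the authors' deposited table). These differences round to the same values as those of the 3-group fit, and their adjusted p-values are higher.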

How the data were processed

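Biotin-labelled RNA was hybridised to Affymetrix arrays, and the authors deposited log2 expression values per gene and array. The submitters' processing notes list RMA and limma, with no version or role. The sources used here name no array model, genome build or annotation. RMA makes array distributions nearly equal, which hides any shift common to most genes. The authors' own comparison, with a log2 difference, a p-value and its adjusted form, is in a deposited table, per the file headers. Values in another deposited table were equal to within 0.005.

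The 10 genes, lists and tests were chosen with earlier results of these data known. A model of 3 group means was fitted to 14 arrays with limma 3.58.1 in R 4.3.3, without filter (11 residual and 5.31 prior degrees of freedom). Tests were two-sided, with Benjamini-Hochberg adjustment over 20193 genes in each of 4 contrasts and a threshold of 0.05. Unless another source is named, adjusted p-values come from that limma fit, ± after a log2 change gives the SE, and a range in parentheses is the 95% confidence interval. Airn was also tested by exact two-sided permutation. The limma fit was also tested on simulated data. Of simulated log2 changes of 0.25 it called 19.4% with siAirn-001.1, 13.4% with siAirn-001.2 and 31.3% in the mean contrast. For changes of 0.5 these shares were 79.1%, 76.1% and 91.0%. Alternatives were blocks by replicate number, array weights, centring, quantile normalisation, a filter on low values, fewer siScramble arrays, only the groups compared, and each array left out.

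Deviations from the group means correlated at 0.318 to 0.534 between equal replicate numbers of the siAirn groups (4 of 4 above 0.1), which was taken as pairing. Unequal numbers were not set beside them, so pairing number by number is not shown. Between siScramble and siAirn-001.1 they ran from -0.429 to 0.234 and between siScramble and siAirn-001.2 from -0.386 to 0.15, so these arrays were not taken as paired. Every array differed from every other. Precision is limited by how many arrays there were: across genes the median SE was 0.0876 with either reagent and 0.0733 in the mean contrast.

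Genes named are the 10, Airn, Nfe2l2, Keap1 and Bach1; from each list up to 3 genes past the threshold in the mean contrast, and up to 2 per single reagent or for the reagent difference, by size; and the 3 genes most like each of the 2 largest called members of the 10 (symbols of predicted, small RNA and receptor families passed over). Promoter windows were scanned in Python 3.11.15.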

Additional observations from a re-analysis of the deposited data

Results flagged for a closer look

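Gclm in siScramble replicate 3 was 11.00, 0.766 of the siScramble range away from the nearest other array. Srxn1 in siAirn-001.1 replicate 4 was 9.53, 0.864 of that group's range above the nearest other array. Txn2 in siScramble replicate 3 was 10.79, 0.778 of the siScramble range above the nearest other array. Of 75 gene groups examined 3 stood out in this way, and chance gives about 1 in 20. Ugdh was 0.94 higher on the log2 scale with siAirn-001.2 than with siAirn-001.1 (limma adjusted p = 0.00495 for the difference).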

How the results depend on the processing

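Srxn1 and Gsta3 passed with siAirn-001.1 under every setting tried, with adjusted p of 0.00717 to 0.0246 and 0.00926 to 0.0365 when 1 array was left out. The number of the 10 genes past the threshold was 4 with siAirn-001.1 when arrays of consecutive numbers formed a block (Gclc and Txnrd1 added, adjusted p = 0.0058 and 0.0341), where 11.4% of all genes passed. It was 3 (Gclc added) with the replicate block, array weights or siScramble limited to replicates 1 to 4, where 9.14%, 9.44% and 6.61% of all genes passed. Under the others it was 2, against 5.96% of all genes in the main fit. In the mean contrast it was 3 with the consecutive block (Gclc, Txnrd1 and Gsta3, adjusted p = 0.0222, 0.0361 and 0.0303), where 9.69% of all genes passed. It was 1 with arrays centred on their median (3.6% of all genes) and 1 after quantile normalisation (5.17%). With siScramble limited to replicates 1 to 4 it was 0 (5.67% of all genes). Leaving out 1 array gave 2 to 2 with siAirn-001.1, 0 to 0 with siAirn-001.2, 0 to 2 in the mean contrast (0 without siScramble array 5) and 0 to 0 between the reagents. Over the whole table these fits gave 770 to 1259, 46 to 254, 378 to 981 and 20 to 571 genes.

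With the replicate block, where the numbers pair the siAirn groups only, the counts over the whole table were 1845 with siAirn-001.1, 563 with siAirn-001.2, 1550 in the mean contrast and 293 between the reagents, against 1203, 192, 833 and 203. With that block Gclc passed with siAirn-001.1 (log2 change -0.48, adjusted p = 0.0102) and in the mean contrast (-0.34, adjusted p = 0.0303), Nfe2l2 passed with siAirn-001.2 (0.38, adjusted p = 0.0149), and in the mean contrast Srxn1 (0.17, adjusted p = 0.0834), Glrx3 (-0.35, adjusted p = 0.0611) and Gstp1 (0.21, adjusted p = 0.0508) did not pass while Keap1 did (0.24, adjusted p = 0.0419). The consecutive block gave 2310, 940, 1956 and 676 genes and array weights 1906, 969, 1927 and 509. With siAirn-001.2, 300 genes passed after quantile normalisation and 413 with siScramble limited to replicates 1 to 4. Between the reagents 25 passed when only those groups were fitted. The causes were not tested.

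Among the 148 other redox genes, the count with siAirn-001.1 was 22 with the replicate block, 25 with the consecutive block and 17 with array weights. Of all genes, 9.14%, 11.4% and 9.44% passed in these settings. When 1 array was left out the count was 7 to 12, against 770 to 1259 over the whole table. With siAirn-001.2 the count was 8, 10 and 12 in the same 3 settings, where 2.79%, 4.66% and 4.8% of all genes passed. It was 6 with siScramble limited to replicates 1 to 4, where 2.05% of all genes passed. When 1 array was left out it was 2 to 5 (5 without siAirn-001.2 array 1), against 46 to 254 over the whole table. In the mean contrast the count was 18, 28 and 25, where 7.68%, 9.69% and 9.54% of all genes passed. It was 8 to 12 when 1 array was left out, against 378 to 981 over the whole table. Between the reagents the count was 3, 6 and 4, where 1.45%, 3.35% and 2.52% of all genes passed. It was 2 after quantile normalisation (1.27% of all genes), 2 without the dimmest genes (1.66%), 0 with only those groups fitted (0.124%) and 2 with siScramble limited to replicates 1 to 4 (1.06%). When 1 array was left out it was 1 to 4, against 20 to 571 over the whole table (4 without siAirn-001.2 array 2, 3 without siAirn-001.2 array 1, 2 without siAirn-001.1 array 2).

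Airn, past 0.05 in the exact permutation test, did not pass in limma over all genes with siAirn-001.1 (-0.59, adjusted p = 0.168) or siAirn-001.2 (-0.69, adjusted p = 0.193). It did pass in limma with the replicate block (adjusted p = 0.0405 for siAirn-001.1, 0.0418 for siAirn-001.2), with the consecutive block (0.0209 and 0.0181) and, for siAirn-001.2, with array weights (0.0208). In the exact test, leaving out 1 array gave -0.75 to -0.44 and -0.91 to -0.50.

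Signs turned only for values that passed under none of the settings. Hmox1 with siAirn-001.1 was -0.0239 with array weights and -0.0132 after quantile normalisation. Gsr was -0.0794 with siAirn-001.1 under either block or fewer siScramble arrays and -0.0854 with array weights, and in the mean contrast -0.14 and -0.0890. With array weights Nqo1 was -0.0375 with siAirn-001.2, and Prdx1 0.0122 between the reagents. Leaving out 1 array turned the sign of several others. With siAirn-001.1 the ranges were -0.0842 to 0.0761 for Hmox1 and -0.0316 to 0.185 for Gsr. With siAirn-001.2 they were -0.0544 to 0.103 for Nqo1, -0.145 to 0.0561 for Gclc, -0.00136 to 0.118 for Gclm, -0.115 to 0.0421 for Gsr and -0.0599 to 0.0911 for Prdx1. In the mean contrast they were -0.0125 to 0.0676 for Hmox1 and -0.0539 to 0.0693 for Gsr. Between the reagents they were -0.0170 to 0.143 for Hmox1, -0.0428 to 0.226 for Txnrd1, -0.136 to 0.0154 for Prdx1, -0.318 to 0.0877 for Airn and -0.0495 to 0.0178 for Gstp1. Neither median centring nor quantile normalisation moved the median of all genes by over 0.1.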
